A study of Homo sapiens with 6 samples.

Results

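Glycolysis and the pentose phosphate pathway were described through 35 genes, chosen by name as the transporters, enzymes and regulators of glucose use and taken from the 40205 gene symbols of the count file. RNA-seq was run on cells labelled as HepG2, a human liver cancer line, with 3 control samples that received no liposomes and 3 samples exposed to cationic liposomes (CLs) for 24 h at 120 μM by the labels, a dose that the published text gives in μM in one place and in μg/ml in others. The CLs were vesicles of the cationic lipid DOTAP, cholesterol and a PEGylated phospholipid. All cells were grown in DMEM with fetal bovine serum and seeded 24 h before exposure, and nothing in the labels says whether the samples of a group were separate cultures, so p-values measure the spread between these samples only. Values by sample are given in the order of samples 1, 2 and 3 of a group unless samples are named. The comparison asked whether CLs changed the transcript levels of glucose metabolism.

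Glycolysis breaks glucose down to pyruvate in the cytosol. Glucose enters through transporters of the SLC2A (GLUT) family, is trapped by hexokinase, committed by phosphofructokinase and split by aldolase, and the lower part of the pathway returns ATP. Pyruvate kept out of mitochondria is reduced to lactate and leaves through monocarboxylate transporters. The pentose phosphate pathway branches off after hexokinase and yields NADPH, which serves lipid synthesis and antioxidant defence, and ribose phosphate for nucleotides. Normal liver also makes glucose, and hepatocytes carry their own isozymes for both directions.

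None of the 34 genes with enough reads to be tested passed the criteria, an adjusted p-value under 0.05 with a fold change above 1.5 or below 0.67, in either direction. Over all 15047 genes tested, 0.0864% passed, or 0.0731% in the lower direction. SLC2A3, the gene of the high-affinity glucose transporter GLUT3, stood apart from the other 33, at -0.64 on the log2 fold change scale (standard error 0.14) and an adjusted p of 0.201. Unless another tool is named, p-values are those of edgeR's quasi-likelihood fit, adjusted by the Benjamini-Hochberg method over all tested genes. The log2 fold changes of the other 33 lay between -0.30 and 0.25, and 19 of the 34 were above 0 and 15 below. The median of the 34 was 0.03, beside 0.01 over all tested genes. At an unadjusted p-value under 0.05 there was 1 member, SLC2A3, which is 2.94% of the members against a background of 5.81% of all tested genes, or 3.62% lower.

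The intervals show how large a change these data leave room for. In 26 of the 34 genes (76.5%), the 95% interval of the fold change lay wholly between 0.67 and 1.5, a property of 48.7% of all tested genes. In all 34 it lay within a factor of 2 in both directions. In 26 of the 34 genes the absolute log2 fold change was also smaller than the SD between samples of a group, which held for 67.9% of all tested genes. The power to call a change was low near the fold criterion. It was gauged in simulated data, where counts were drawn independently for each gene and changes were planted only in genes above a set level. Recovery depends on these settings and on the number of changed genes, so it may differ in the real data. In the simulated data, edgeR's test at an adjusted p under 0.05 recovered 10.5% of changes of 1.5-fold, and 16% of its calls were false. Of 2-fold changes it recovered 90.5%, with 4.74% of calls false. Not passing the criteria is therefore, by itself, weak evidence of no change at a fold of 1.5.

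**Figure D1:**
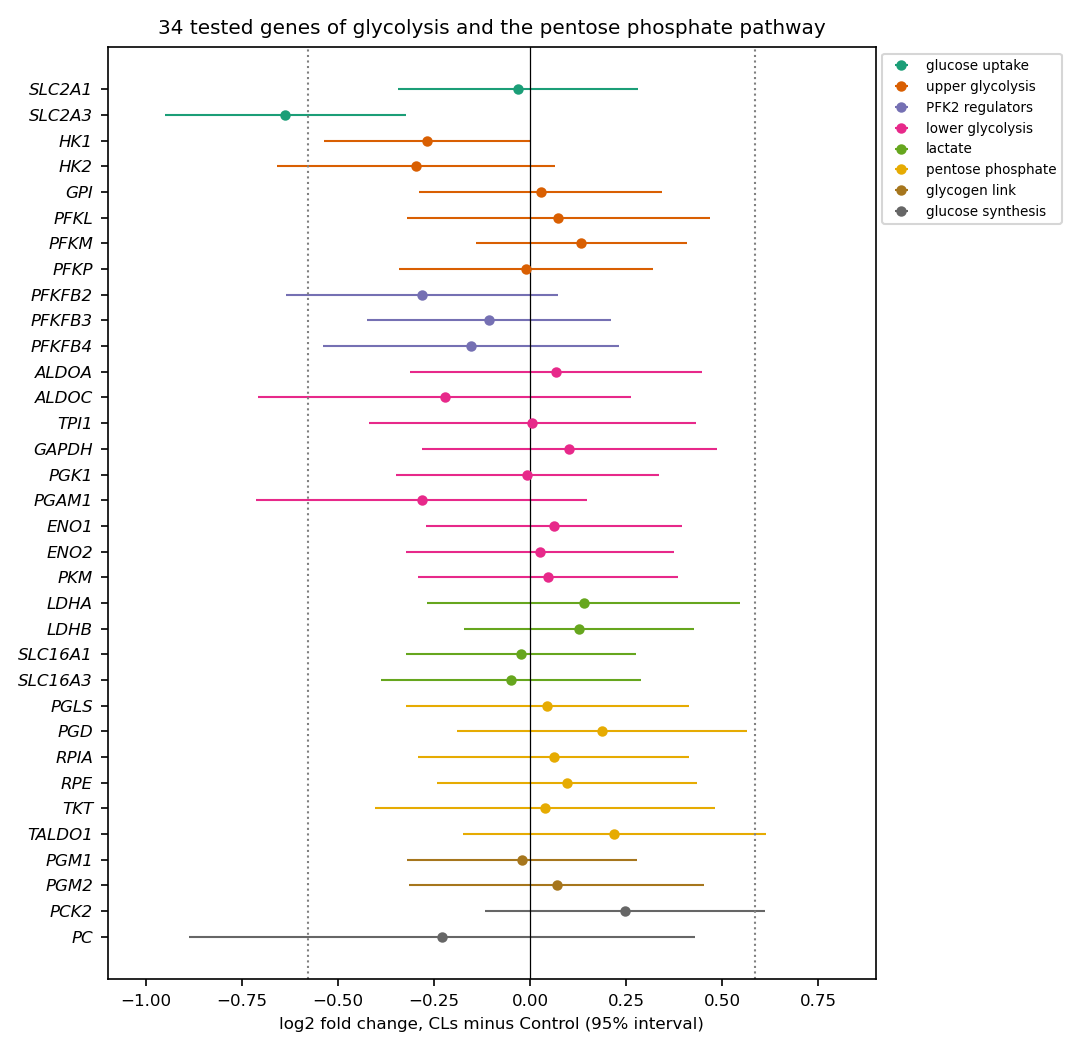
Log2 fold change of the CLs-treated group against the control group for the 34 tested genes, by role, with 95% intervals from edgeR's quasi-likelihood fit on 3 samples in each group. Dotted lines mark folds of 0.67 and 1.5. SLC2A3 at -0.64 lies left of the lower line, and the other 33 genes lie between -0.30 and 0.25.

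The labelled cell type was checked against 15 hepatocyte markers. Their reads summed to between 4 and 18 in the control samples and to 166, 3 and 3 in the CLs-treated samples. ALB, the gene of serum albumin, was counted 8 times in CLs-1 and never in the 5 others, and TTR and APOH had 0 in all 6. The defining markers of liver cells were thus at or near 0 in the libraries labelled HepG2. CLs-1 also held 480 reads of 7 erythroid markers and 466 of 7 adrenal markers, against at most 4 and 32 in any other sample. Few markers carried these sums. The erythroid reads were of HBB (324), HBA2 (118) and HBA1 (34), with HBD at 2, ALAS2 and SLC4A1 at 1 and HBM at 0. The adrenal reads were of STAR (290), CYP11A1 (151), HSD3B2 (24) and CYP17A1 (1), while CYP11B1, CYP21A2 and MC2R had 0. CYP11A1 was also counted in every other sample, at 11 to 29. COL1A2, a fibroblast marker, reached 1044 counts in CLs-1 but no more than 2 in the rest, and the fibroblast markers DCN, LUM and THY1 had at most 5 counts outside CLs-1. The collagen gene COL3A1 made up most of the summed counts of the 7 fibroblast markers, with 7456 to 11358 counts in the control group and 8168 to 9697 in the CLs-treated group. The fibroblast markers COL1A1 and PDGFRB were also counted in every sample. COL1A1 had 764, 1072 and 1203 counts in the control samples and 2472, 1302 and 882 in the CLs-treated samples. PDGFRB had 181, 257 and 236 against 275, 223 and 167. The part of these reads in the results was not tested, and the fit without CLs-1 is described after the members.

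Several transporters and enzymes that mark liver glucose metabolism, but not all, were at or near 0 in both groups. SLC2A2 (GLUT2) had 0 reads in all 6 samples, and PKLR (liver pyruvate kinase) had at most 1 read in any sample. G6PC, which releases free glucose in the last step of gluconeogenesis, had at most 2. FBP1, the gluconeogenic fructose bisphosphatase and the member that could not be tested, had 0 counts in each control sample and 2, 1 and 0 in the CLs-treated samples. All of these are at or under the floor of 3 counts. At depths between 11418527 and 13998946 counts per sample, this floor corresponds to 0.214 to 0.263 CPM (counts scaled to library size), taken here on plain totals. Other genes tied to liver glucose metabolism, PCK1 and PYGL, were expressed in all 6 samples. PCK1 measured 9.03, 15.4 and 23.2 CPM in the control samples and 10.9, 19.9 and 19.6 CPM in the CLs-treated samples. For PYGL the values were 174.9, 158.1 and 181.7 CPM against 148.7, 163.3 and 182.2 CPM.

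The 34 expressed genes spanned more than 3 orders of magnitude in level per kilobase of exon. GAPDH, the enzyme that opens the energy-yielding part of glycolysis, was the highest, at a mean of 4299 CPM per kb in the control group. It was followed by ENO1 at 1704, PKM at 863, TKT at 831 and ALDOA at 823 CPM per kb, PKM, TKT and ALDOA differing by less than their spread between samples. The lowest were the regulators PFKFB3, PFKFB2 and PFKFB4, at 8.19, 4.40 and 3.42 CPM per kb. Together the 35 genes took 3.09%, 3.13% and 2.74% of all counts in the control samples, and 2.82%, 3.40% and 3.31% in the CLs-treated samples. The ranges of both groups overlap, and the counting interval of each share (95%, Wilson) is within 0.011 percentage points of it, counting error only.

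**Figure D2:**
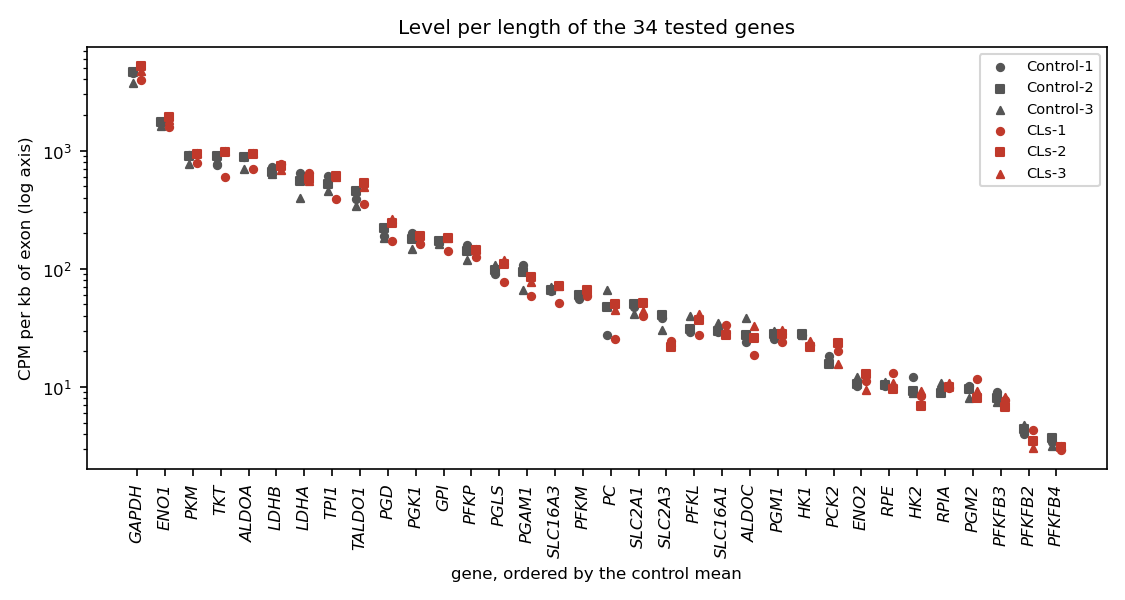
Level of the 34 tested genes in each of the 6 samples, as CPM per kilobase of exon on a log axis, ordered by the control mean. Grey symbols are control samples and red symbols CLs-treated samples. GAPDH heads the order at a control mean of 4299 and PFKFB4 closes it at 3.42 CPM per kb.

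The members held 2 genes of glucose transporters, SLC2A3 and SLC2A1, and uptake itself was not measured. SLC2A3 measured 149.5, 159.3 and 120.0 CPM in the control samples, and 95.2, 86.1 and 94.4 CPM in the CLs-treated samples. Every CLs-treated sample was below every control sample. The means were 142.9 ± 20.5 and 91.9 ± 5.06 CPM (SD, n = 3 in each group), a fold of 0.643 with a 95% interval from 0.517 to 0.799. SLC2A3 was the gene of the list with the smallest p-value (unadjusted p = 0.000933 in edgeR), and its adjusted p of 0.201 did not pass. The Wald test of DESeq2 did call it, at an adjusted p of 0.0131, where 0.714% of genes were called (0.611% lower). So did edgeR without a filter on low counts, at an adjusted p of 0.0379, where 0.672% were called. No member was called with the other scalings (background 0.12% with DESeq2's size factors, 0.0532% with library totals, 0.0997% with the upper quartile) or with the replicate number as a block (0.452%, or 0.372% lower). Nor was any called without Control-1, Control-2 or Control-3 (0.039%, 0.0195% and 0.0456%) or without CLs-1, CLs-2 or CLs-3 (0.0261%, 0.0195% and 0.0455%). SLC2A3 was named among the changed genes in the published study of these samples, so its difference here is not independent evidence.

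SLC2A1, the gene of the widely expressed transporter GLUT1, gave no such difference. It measured 187.9, 199.5 and 165.4 CPM in the control samples and 160.2, 205.6 and 175.3 CPM in the CLs-treated samples, and the groups overlapped. Its fold was 0.979, with a 95% interval from 0.788 to 1.22. The ratio of SLC2A3 to SLC2A1 reads, which does not depend on scaling between libraries, was 0.796, 0.799 and 0.725 in the control samples and 0.594, 0.419 and 0.539 in the CLs-treated samples. On the log2 scale the ratio was lower by 0.594 in the CLs-treated group, with no overlap between the groups (exact two-sided permutation p = 0.10, the smallest that 3 samples against 3 allow, and 0.90 after Benjamini-Hochberg adjustment over 9 ratios). Relative to GAPDH, which the study used as the reference gene in qRT-PCR, there were 14.9, 15.6 and 14.3 reads of SLC2A3 per 1000 of GAPDH in the control samples and 10.8, 7.47 and 9.04 in the CLs-treated samples.

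SLC2A3 has a close relative, SLC2A14 (GLUT14), on the same chromosome, and single-end reads cannot always tell the pair apart. In GENCODE 29 (GRCh38), their longest coding sequences aligned over 1478 bases with 97% identity. Of all runs of 50 bases in the SLC2A3 transcript, 23% occur in SLC2A14 as well. The stretch of 150 bases within a single coding exon in which the pair differs most is shown to illustrate how few bases separate them, with the 11 differing bases in capitals. It lies at chr12:7930482-7930631 in SLC2A3 and at chr12:7828706-7828855 in SLC2A14, both on the minus strand.
SLC2A3: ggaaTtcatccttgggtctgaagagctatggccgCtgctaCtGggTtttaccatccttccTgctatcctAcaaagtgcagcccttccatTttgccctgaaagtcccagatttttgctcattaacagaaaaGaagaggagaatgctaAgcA
SLC2A14: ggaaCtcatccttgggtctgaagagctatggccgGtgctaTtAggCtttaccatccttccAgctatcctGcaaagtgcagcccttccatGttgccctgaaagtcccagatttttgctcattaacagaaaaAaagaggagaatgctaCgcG
SLC2A14 had 25, 30 and 19 counts in the control samples and 17, 16 and 17 in the CLs-treated samples, at most 30 beside at least 996 for SLC2A3. How the counting split reads that match both was not tested. The sum of both was 1747, 1875 and 1418 reads in the control samples and 1392, 1012 and 1095 in the CLs-treated samples. Rows of 3 pseudogenes of SLC2A3 held 69, 96 and 138 counts in the control samples and 112, 48 and 75 in the CLs-treated samples. That is 6.39% as many as SLC2A3 itself.

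The hexokinases trap glucose as glucose 6-phosphate. HK1, the housekeeping form, measured 129.3, 131.0 and 128.1 CPM in the control samples and 105.5, 102.5 and 114.5 CPM in the CLs-treated samples. The control samples lay close together and all 3 CLs-treated samples lay below them, at a fold of 0.830 with an interval from 0.689 to 1.0002 (adjusted p = 0.855). HK2, the inducible form of growing and tumour cells, measured 71.6, 54.7 and 52.6 CPM against 50.1, 41.1 and 54.4 CPM, and its groups overlapped. Its log2 fold change was -0.30 (standard error 0.17), and -0.14 without Control-1 and -0.19 without CLs-2. Besides SLC2A3 and HK1, the groups of PFKFB4 did not overlap, with 12.2, 13.2 and 11.41 CPM in the control samples and 10.5, 11.2 and 11.3 CPM in the CLs-treated samples. These 3 genes, all lower, are 8.82% of the members, and the background of genes whose groups did not overlap was 11.5% of all tested genes, or 6.18% lower and 5.34% higher.

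**Figure D3:**
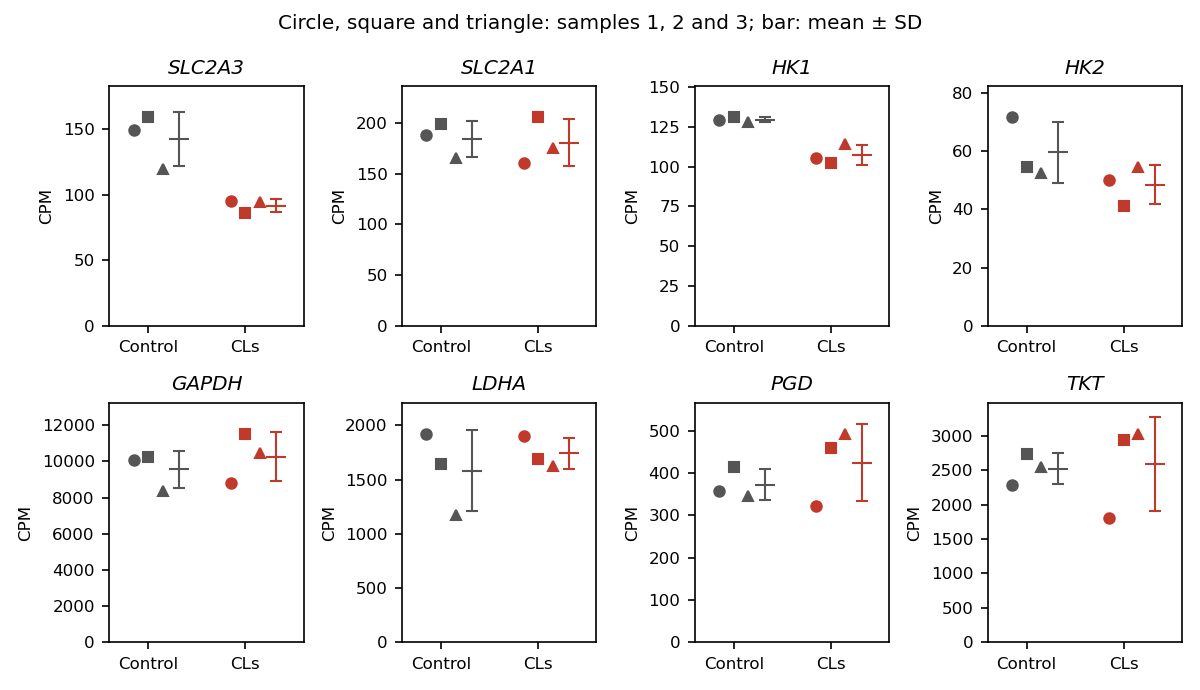
CPM of 8 genes in each sample, on axes from 0, with the mean ± SD of 3 samples beside the points. SLC2A3 and HK1 are the 2 of these genes whose CLs-treated samples all lie below the control samples, while CLs-1 (red circle) is the lowest of all samples for SLC2A1, PGD and TKT.

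All 3 phosphofructokinase genes of the committed step, PFKL (liver type), PFKM (muscle type) and PFKP (platelet type), were expressed. Their log2 fold changes were 0.07, 0.13 and -0.01, each with a standard error between 0.12 and 0.18, and that of GPI, which makes fructose 6-phosphate, was 0.03. The enzymes of the PFKFB family set the level of fructose 2,6-bisphosphate, the main activator of phosphofructokinase. PFKFB2, PFKFB3 and PFKFB4 had log2 fold changes of -0.28, -0.11 and -0.15, with unadjusted p-values between 0.109 and 0.473 from edgeR's quasi-likelihood test. The 3 values were below 0 under every scaling tried and with each sample left out, but none passed.

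The 9 genes of lower glycolysis lay around a median of 0.03 in log2 fold change, between -0.28 for PGAM1 and 0.10 for GAPDH. GAPDH measured 10066, 10226 and 8388 CPM in the control samples and 8813, 11529 and 10453 CPM in the CLs-treated samples. The groups overlapped, and the means of 9560 ± 1018 and 10265 ± 1368 CPM (SD, n = 3 in each group) differed by a fold of 1.07, with an interval from 0.823 to 1.40. PKM, the pyruvate kinase of most tissues other than liver, measured 3051, 2963 and 2559 CPM against 2618, 3072 and 3168 CPM, a fold of 1.03 with an interval from 0.817 to 1.31. The minor brain-type isozymes ALDOC and ENO2 had log2 fold changes of -0.22 and 0.03. Several of these enzymes have pseudogenes listed under symbols of their own, whose rows held 41.2% as many counts as TPI1 itself, 13.4% as many as LDHA, 10.8% as many as PGK1 and 6.78% as many as GAPDH. Of all runs of 50 bases, 88.1% in the ALDOA transcript, 58.5% in that of LDHB and 43.1% in that of PGAM1 occur in transcripts of other annotated genes. Most of this sharing was with a single other gene each (87.1%, 53.5% and 37.4%), and genes annotated at the same place were not set apart. Pseudogene rows held 2.78%, 2.9% and 3.63% as many counts as these 3 genes. Whether their counts were affected was not tested, so their levels may be uncertain.

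At the end of the pathway, lactate dehydrogenase reduces pyruvate, with LDHA encoding the subunit common in muscle and LDHB that of heart. LDHA measured 1921, 1646 and 1178 CPM in the control samples and 1905, 1693 and 1629 CPM in the CLs-treated samples. The spread inside the control group, a factor of 1.63 between its highest and lowest sample, exceeded the distance between the group means, a fold of 1.10 with an interval from 0.831 to 1.46. LDHB measured 1143, 1038 and 1001 CPM against 1211, 1178 and 1085 CPM, a fold of 1.09 with an interval from 0.887 to 1.34. Of the monocarboxylate transporters, SLC16A1 (MCT1) measured 135.8, 139.9 and 161.0 CPM against 156.7, 128.3 and 144.6 CPM. SLC16A3 (MCT4), the form known for lactate export, measured 337.9, 341.3 and 361.1 CPM against 264.3, 369.7 and 371.4 CPM, with CLs-1 alone below the control range. Neither of the transporters differed beyond the spread, at log2 fold changes of -0.02 and -0.05 with standard errors of 0.14 and 0.15.

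The 6 genes of the pentose phosphate pathway had log2 fold changes above 0, between 0.04 and 0.22, with a median of 0.08, and none passed. All 6 remained above 0 under the 3 other scalings, and 4 of 6 did so without Control-1, CLs-2 or CLs-3, and 5 of 6 without CLs-1, where their median was 0.23. PGD, which makes NADPH in the oxidative branch, measured 358.9, 415.6 and 345.0 CPM in the control samples and 321.9, 460.5 and 493.1 CPM in the CLs-treated samples. CLs-2 and CLs-3 were above the control range and CLs-1 below it, and the fold was 1.14 with an interval from 0.877 to 1.48. Without CLs-1 the log2 fold change of PGD was 0.35 and that of TALDO1, the transaldolase, 0.38, with unadjusted p-values of 0.0226 and 0.0310 and adjusted ones of 0.488 and 0.510 from the same test. TKT, the transketolase, measured 2288, 2731 and 2545 CPM against 1799, 2943 and 3027 CPM, with the same order of samples in the CLs-treated group. PGLS, RPIA and RPE had log2 fold changes of 0.05, 0.06 and 0.10.

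CLs-1 and Control-3 stood apart in many members. CLs-1 was the lowest of the CLs-treated samples in 22 of the 34 genes and the highest in 7, whereas over all tested genes it was the lowest in 39.8% and the highest in 39.9%. Control-3 was the lowest control in 20 genes and the highest in 11, against 40.1% and 39.7% of all tested genes. Without CLs-1, 5 members had an unadjusted p-value under 0.05 in edgeR's test, namely HK1, PFKFB2 and SLC2A3 below the control group and PGD and TALDO1 above it, while 9.02% of all genes did, and none passed the criteria. The log2 fold change without CLs-1 was 0.24 for TKT, 0.21 for PGLS, 0.22 for PFKL, 0.19 for TPI1, 0.20 for ALDOA, -0.42 for PFKFB2, -0.14 for PGAM1 and -0.03 for ALDOC. It was on the other side of 0 from the value over all samples for SLC2A1, PFKP, PGK1, SLC16A3, RPE, PGM1, PGM2 and PC, all of them between -0.09 and 0.10.

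**Figure D4:**
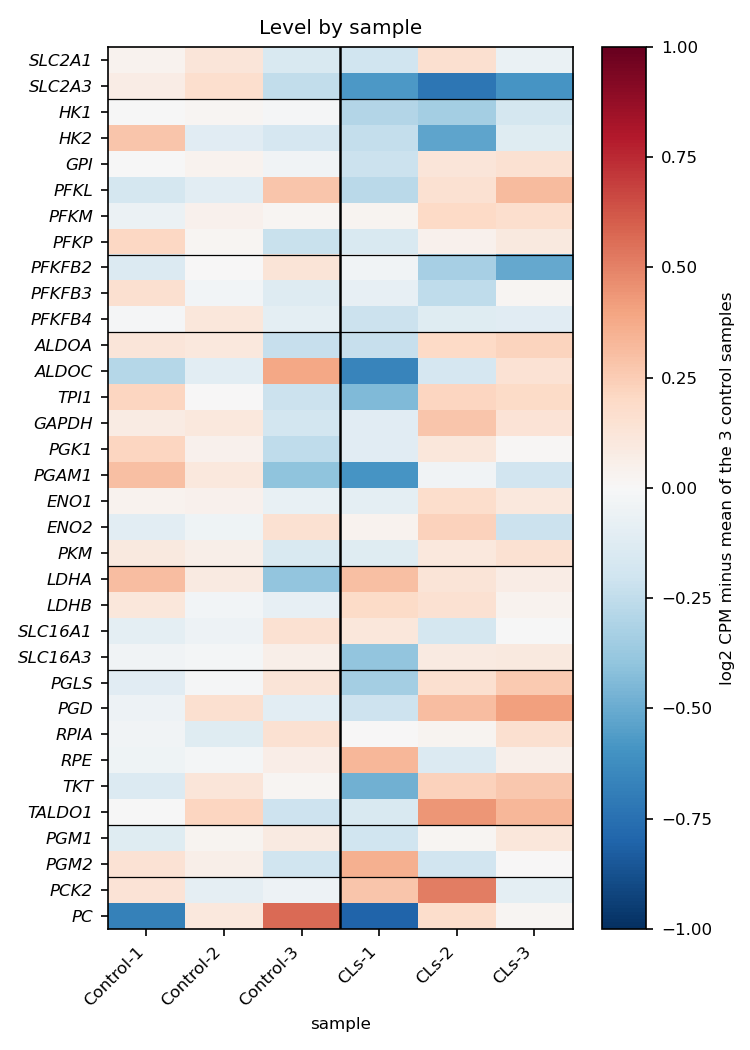
Level of the 34 tested genes in each sample as log2 CPM minus the mean of the 3 control samples, with roles separated by horizontal lines and the groups by the vertical line. SLC2A3 is below 0 in all 3 CLs-treated samples, and CLs-1 is the lowest CLs-treated sample in 22 genes.

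Reads of paired isozymes were compared within each library. Of the 9 ratios, SLC2A3 to SLC2A1 was the only one whose groups did not overlap. The difference of LDHB to LDHA was -0.04 on the log2 scale, that of HK2 to HK1 -0.02 and that of SLC16A3 to SLC16A1 -0.04, with exact permutation p-values of 1.0, 0.80 and 1.0. The difference of ALDOC to ALDOA was -0.29, and Control-3 lay above the 5 other samples.

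**Figure D5:**
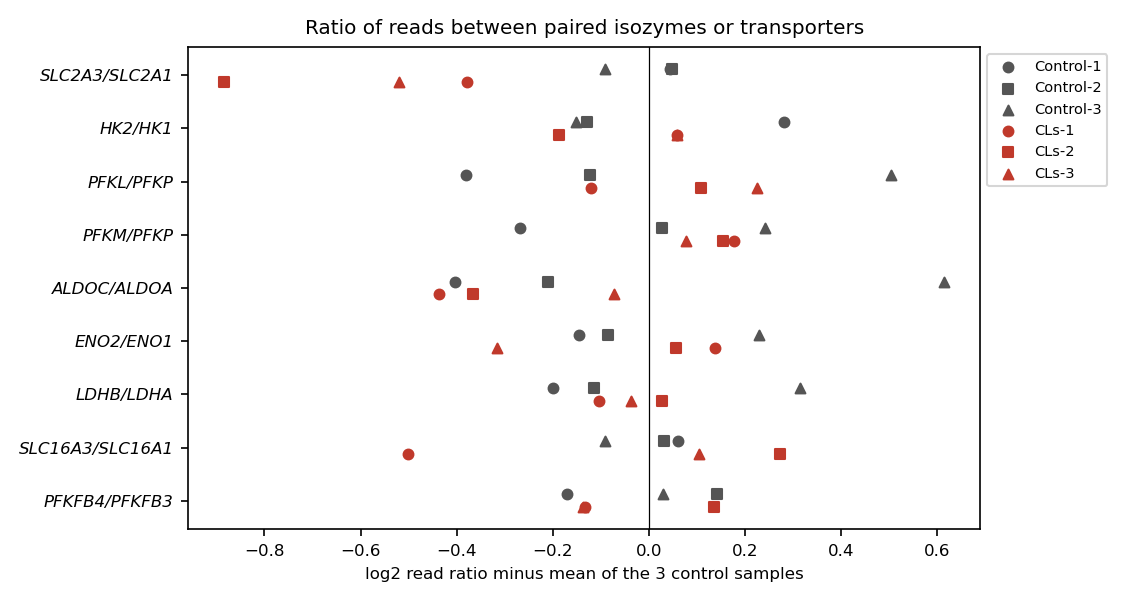
Log2 ratio of the reads of 2 genes in each sample, minus the mean of the 3 control samples, for 9 pairs. Grey symbols are control samples and red symbols CLs-treated samples. The CLs-treated samples of SLC2A3/SLC2A1 lie left of all control samples, with a mean difference of -0.594, and in the 8 other pairs the groups overlap.

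The remaining members lie beside the main route. PGM1 and PGM2, which connect glucose 6-phosphate to glycogen and to ribose phosphate, had log2 fold changes of -0.02 and 0.07. PCK2, the mitochondrial form of the enzyme that makes phosphoenolpyruvate, measured 58.5, 50.2 and 51.5 CPM in the control samples and 64.5, 75.9 and 49.8 CPM in the CLs-treated samples, and the groups overlapped. Its log2 fold change was 0.25, and 0.10 without CLs-2 and 0.39 without CLs-3. PC, pyruvate carboxylase, was the most variable member, at 133.6, 228.8 and 316.1 CPM against 122.0, 241.1 and 216.4 CPM. Its control samples differed among themselves by a factor of 2.37, and its log2 fold change was -0.23 (standard error 0.30).

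A further 95 genes around the pathway were listed as other isozymes, glycogen and gluconeogenesis, the rest of the pentose phosphate pathway, pyruvate entry into mitochondria, the hypoxia-inducible factors (HIF), their other targets, and the glucose-sensing factor ChREBP. Of the 74 with enough reads, 1 rose, PDK4, and none fell, beside the background of 0.0864% of all tested genes. PDK4 is the kinase that switches off pyruvate dehydrogenase and so keeps pyruvate from the citrate cycle. It measured 5.47, 6.65 and 5.92 CPM in the control samples and 42.0, 29.6 and 32.9 CPM in the CLs-treated samples, a fold of 5.79 with an interval from 4.31 to 7.78 (adjusted p = 0.000615 in edgeR). The published study of these samples lists PDK4 among its changed genes as well. The other kinases of this family, PDK1, PDK2 and PDK3, had log2 fold changes of 0.00, 0.16 and 0.23.

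Glycogen synthase and the branching enzyme gave values on opposite sides. GYS1, which lengthens glycogen chains, measured 200.2, 209.9 and 202.0 CPM in the control samples and 125.3, 143.9 and 159.0 CPM in the CLs-treated samples. Its groups did not overlap, at a fold of 0.699 with an interval from 0.571 to 0.857, and its adjusted p was 0.288 from edgeR's quasi-likelihood test and 0.0498 from DESeq2's Wald test. GBE1, which adds the branches, measured 71.8, 70.3 and 54.8 CPM against 99.8, 88.9 and 82.0 CPM, also without overlap, at a fold of 1.38 with an interval from 1.10 to 1.73 and an adjusted p of 0.50 from edgeR's test. Among transporters, SLC2A4 and SLC2A6 had log2 fold changes of -1.29 and -0.57 at means of 2.55 and 6.53 CPM in the control group, with adjusted p-values of 0.686 and 0.775. PDP2, the phosphatase that opposes the PDK kinases, had one of -0.50 with an adjusted p of 0.829.

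Hypoxia-inducible factors raise transcription of many glycolytic genes when oxygen is short. HIF1A itself had a log2 fold change of -0.07, none of the 8 HIF regulators had an unadjusted p-value under 0.05, and 3 of 16 other targets did, beside 5.81% of all tested genes, with NDRG1 and BHLHE40 at -0.55 and -0.48 and KDM3A at 0.29 (adjusted p-values of 0.691, 0.821 and 0.851). Of the 16, 11 were above 0, with a median log2 fold change of 0.11 and a range from -0.55 to 0.35. The cores of the HIF site, ACGTG and GCGTG, were searched on both strands in the 300 bases around the start of each gene that RefSeq gives (GRCh38.p14, 32 of the 35 members matched). At least 1 of them occurred in 20 of these 32 promoters (62.5%) and in 48.4% of all 35116. The 19 tested members with a match centred on a log2 fold change of 0.05 (median) and the 12 without one on 0.02, and a match is a description of letters, not a bound site. The promoter of LDHA held the most matches, 6, and is shown as the clearest example of such a promoter among the members, with the matches in capitals. Each CACGTG in it is read as ACGTG on both strands and counts as 2. It lies at chr11:18394313-18394612 on the plus strand.
LDHA: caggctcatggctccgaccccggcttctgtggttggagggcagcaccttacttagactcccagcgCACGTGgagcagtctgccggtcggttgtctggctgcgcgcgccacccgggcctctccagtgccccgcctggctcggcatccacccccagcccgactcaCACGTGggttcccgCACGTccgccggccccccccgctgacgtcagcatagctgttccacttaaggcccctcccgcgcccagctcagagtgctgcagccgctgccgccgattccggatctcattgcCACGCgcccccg
The level of LDHA, given above, did not differ between the groups beyond the spread of its control samples.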

How the data were processed

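RNA-seq libraries of 3 control and 3 CLs-treated samples were sequenced single-end on an Ion Proton. The authors mapped the reads with MapSplice (v2.1.8 in the published methods) and deposited counts, whole numbers of reads per gene symbol without normalization. The submitters' processing notes name HTSeq 0.6.1 and the builds hg19 and GRCh37. How reads with several matches were treated is not given in the sources used here. All 6 columns were used, and totals ranged from 11418527 to 13998946 counts per sample.

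Genes with low counts were removed with filterByExpr, which kept 15047, and libraries were scaled by TMM. The groups were compared by the quasi-likelihood test of edgeR 4.0.16 (R 4.3.3) with condition as the one term and Benjamini-Hochberg adjustment over these genes. Called genes had an adjusted p-value under 0.05 and a fold above 1.5 or below 0.67, the thresholds of the published methods, whose tool EBSeq was not used here. Standard errors came from the F statistic and 95% intervals from the t distribution of the fit. CPM are relative to TMM-scaled totals. Lengths are unions of coding-transcript exons in GENCODE 29, on GRCh38 and not the authors' build. Values by sample are given for members with an unadjusted p-value under 0.05, the transporters, hexokinases, GAPDH, PKM, LDHA, LDHB, PGD, FBP1, PCK2 and PC. Other listed genes are named where they passed or had an unadjusted p-value under 0.05. PFKFB4, TKT, TALDO1, the isozymes named by their fold changes, PDK1 to PDK3, HIF1A, SLC2A14, PGAM4, ENO3 and TXNIP were added after their values were seen. So were PCK1 and PYGL. The members and gene lists were chosen with earlier results of these data known. Alternatives were DESeq2 1.42.0, other scalings, no filter, no fold criterion, a block on replicate number, and fits lacking 1 sample each. The script was tested on simulated data, with the recovery given in the results. Within-group sample pairs differed by more than counting error, so no library was counted as a duplicate. Some listed genes are not reported here.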

Additional observations from a re-analysis of the deposited data

How the results depend on the processing

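Over all 6 samples, the number of members called was 0 in the main test, with the other 3 scalings, with no fold criterion and with the replicate block, and 1 (SLC2A3) in DESeq2's Wald test and 1 with no filter on low counts. Members at an unadjusted p under 0.05 numbered 1, and 2 with DESeq2's size factors in edgeR. The calls over all genes were 13, against 8 with library totals only, 171 with no filter, 104 in DESeq2 and 68 with the replicate block. With each sample left out in turn, members called stayed at 0, members at an unadjusted p under 0.05 ranged from 1 to 5, and all calls from 3 to 7. The log2 fold change of SLC2A3 ranged from -0.75 to -0.55 in these fits, with adjusted p-values from 0.101 to 0.760. The block left SLC2A3 uncalled, at an adjusted p of 0.104. Samples with the same replicate number had deviations correlated at 0.0998, 0.122 and 0.333, and every sample correlated best with its own number, a hint from the data and not from the design.

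Of 156 values of 13 members under 12 alternatives, 143 kept their direction and side of the threshold. SLC16A1 reversed with library totals only, at 0.0023. With single samples left out, values crossed 0 for SLC2A1 (-0.14 to 0.047), SLC16A1 (-0.094 to 0.056), SLC16A3 (-0.13 to 0.10), PKM (-0.025 to 0.13), LDHA (-0.033 to 0.30) and PC (-0.50 to 0.091). The log2 ratios did so for HK2/HK1 (-0.10 to 0.12), PFKL/PFKP (-0.12 to 0.32), ALDOC/ALDOA (-0.49 to 0.015), ENO2/ENO1 (-0.13 to 0.10), LDHB/LDHA (-0.14 to 0.12), SLC16A3/SLC16A1 (-0.20 to 0.19) and PFKFB4/PFKFB3 (-0.13 to 0.025), while SLC2A3/SLC2A1 stayed between -0.70 and -0.45. The cause was not tested. Changes smaller than the 95% intervals were not detectable with 3 samples in each group.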

Other observations

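PGAM4, a copy of PGAM1 that arose by retroposition, was listed at 457, 377 and 215 counts in the control samples and 301, 503 and 468 in the CLs-treated samples. ENO3, the muscle form of enolase, measured 177.6, 218.5 and 261.8 CPM in the control samples and 117.6, 206.5 and 168.5 CPM in the CLs-treated samples, or -0.42 in log2 fold change (standard error 0.21, edgeR adjusted p = 0.887). The mean of ENO3 in the control group, 219.3 CPM, was above that of ENO2, 34.7 CPM, before any correction for length. TXNIP, which limits glucose uptake and responds to glucose, varied inside the control group at 33.6, 41.7 and 107.5 CPM and measured 53.0, 50.4 and 73.5 CPM in the CLs-treated samples.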
